A study of Homo sapiens with 12 samples.

Results

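The retinoid signalling genes were taken as the receptors RARA, RARB, RARG, RXRA, RXRB and RXRG, the clearance enzymes CYP26A1 and CYP26B1, and the cytoplasmic carriers CRABP1 and CRABP2. These 10 gene symbols were chosen by name, and all 10 were found among the 28278 symbols of the count table. The RNA came from cultures differentiated to motor neurons from 1 human embryonic stem cell line, WA09-Islet1-GFP (labelled wild-type), in which GFP marks cells that express the transcription factor Islet1. After thawing and plating, cultures received cis-chlordane, an organochlorine pesticide, or an equal volume of its solvent DMSO for 16 h, and were then separated on GFP by FACS. The dose was 10 µM in the sample labels and 16 µM in the study's methods. The 4 groups were control GFP-positive, treated GFP-positive, control GFP-negative and treated GFP-negative cells, with 3 libraries each. The replicates were, by the study's definition, independent thaws of stored cells of the same line. The study ran its experiments on more than 1 independent differentiation and does not say which one each library came from. The p-values therefore measure the spread between thaws, possibly of different differentiations, and not between donors.

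Retinoic acid, made from vitamin A, enters the nucleus and binds heterodimers of a retinoic acid receptor (RAR) and a retinoid X receptor (RXR), which sit on DNA at pairs of short direct repeats. Without ligand the heterodimer holds corepressors, and with ligand it recruits coactivators. CRABP proteins carry retinoic acid inside the cell, and CYP26 enzymes oxidize it for removal. In the developing spinal cord and hindbrain this pathway sets anterior to posterior identity through the HOX genes, and retinoic acid is widely used to direct stem cells to a spinal motor neuron fate. The exposure medium listed in the study's methods names no retinoic acid, and whether its B27 supplement held a retinoid is not given in the sources used here.

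RARB and CYP26A1 are the textbook direct targets of the pathway, and the DNA around their start sites is shown because the values of both genes recur below. RefSeq promoter windows (GRCh38.p14), which run from 250 bases before a start site to 50 bases after it, were searched on both strands for a DR5 element, meaning 2 half-sites in the same direction separated by 5 bases. A half-site was the sequence AGGTCA or 1 of 3 variants, of which AGTTCA was one, GGGTCA another, and the last was GGTTCA. Of 35116 windows, 31 held such an element (0.0883%), and among the 18 windows of the 10 members 1 of 4 at RARB and 1 of 2 at CYP26A1 did. With 1 base between the half-sites (DR1) 46 windows (0.131%) matched and with 2 bases (DR2) 14 windows (0.0399%), none of them at a member. The capitals below mark the DR5 match, which lies 53 to 37 bases before the RARB start on the strand of the gene, and 90 to 74 bases before the CYP26A1 start on the opposite strand.
RARB, chr3:25428013-25428312, + strand: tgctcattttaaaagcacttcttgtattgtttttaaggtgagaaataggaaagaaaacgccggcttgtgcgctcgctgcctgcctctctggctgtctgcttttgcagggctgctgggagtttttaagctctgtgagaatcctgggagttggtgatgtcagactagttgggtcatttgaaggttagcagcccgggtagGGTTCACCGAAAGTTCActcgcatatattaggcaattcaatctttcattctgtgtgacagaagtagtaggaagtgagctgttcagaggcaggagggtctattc
CYP26A1, chr10:93073643-93073942, + strand: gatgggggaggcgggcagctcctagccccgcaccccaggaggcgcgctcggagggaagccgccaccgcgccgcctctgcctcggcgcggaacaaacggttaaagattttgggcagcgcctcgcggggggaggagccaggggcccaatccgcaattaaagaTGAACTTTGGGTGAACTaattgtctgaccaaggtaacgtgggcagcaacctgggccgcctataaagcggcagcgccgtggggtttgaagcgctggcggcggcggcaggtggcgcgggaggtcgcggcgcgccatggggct
A match of letters is a description of these windows and not a measured binding site. The deposited counts are per gene, so transcripts from the other RARB start sites were not separated from the one shown.

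The libraries held from 23414935 to 38347050 gene counts each. Levels below are counts-per-million (CPM) scaled by the trimmed mean of M values (TMM), and a gene was called when its edgeR adjusted p was under 0.05 over all genes tested and its level differed by at least 2-fold. ISL1 was 23.8-fold higher in GFP-positive than GFP-negative control cells (log2 fold change 4.57 ± 0.19 SE, edgeR adjusted p = 8.7e-07). The unfolded protein response genes HSPA5 and DDIT3 rose 10.4-fold and 12.3-fold with treatment in GFP-positive cells (edgeR adjusted p = 1.2e-17 and 1.7e-16). Control GFP-negative replicate 3 stood apart from its group: haemoglobin HBB was at 3520 CPM there and at 3.98 and 2.73 CPM in replicates 1 and 2, and the leukocyte gene PTPRC had 710 counts against 0 and 0. Treated GFP-negative replicates 1 and 3 held HBB at 139.9 and 108 CPM and replicate 2 at 0.182 CPM. The treatment values of the members tested against the control GFP-negative group are therefore given with and without replicate 3. So are the differences of RXRG, CYP26A1, RARG and CRABP1 from that group in control cultures. Of the other named genes with a call against that group, cell type markers such as HBB aside, CYB5R2 lost it without this library. Among the same genes VDR was the one whose fold moved by over 1.5 times.

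The members covered a wide range of levels. Per kilobase of the canonical transcript, control GFP-positive cells had CRABP1 at 9722 ± 1882 (SD, n = 3), CRABP2 at 668 ± 95.7, RXRG at 220 ± 37.1, RARA at 59.6 ± 6.37, RXRA at 14.3 ± 0.88 and RARB at 2.80 ± 0.60 CPM per kilobase. By total CPM, CRABP1 ranked 6th of 28278 genes in these cells and took 0.718% of the counts. In control GFP-negative cells RARA (57.6 ± 6.82 CPM per kilobase) and RXRG (47.3 ± 6.38) exchanged places, with ranges that overlapped. RXRG also overlapped RARA in treated GFP-positive cells (37.8 ± 17.1 against 24.9 ± 0.76) and RXRA in treated GFP-negative cells (12.6 ± 3.93 against 8.63 ± 1.84). RARG, RXRB, CYP26A1 and CYP26B1 stayed under 0.6 CPM per kilobase in the mean of every group, and their order changed between groups.

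**Figure D1:**
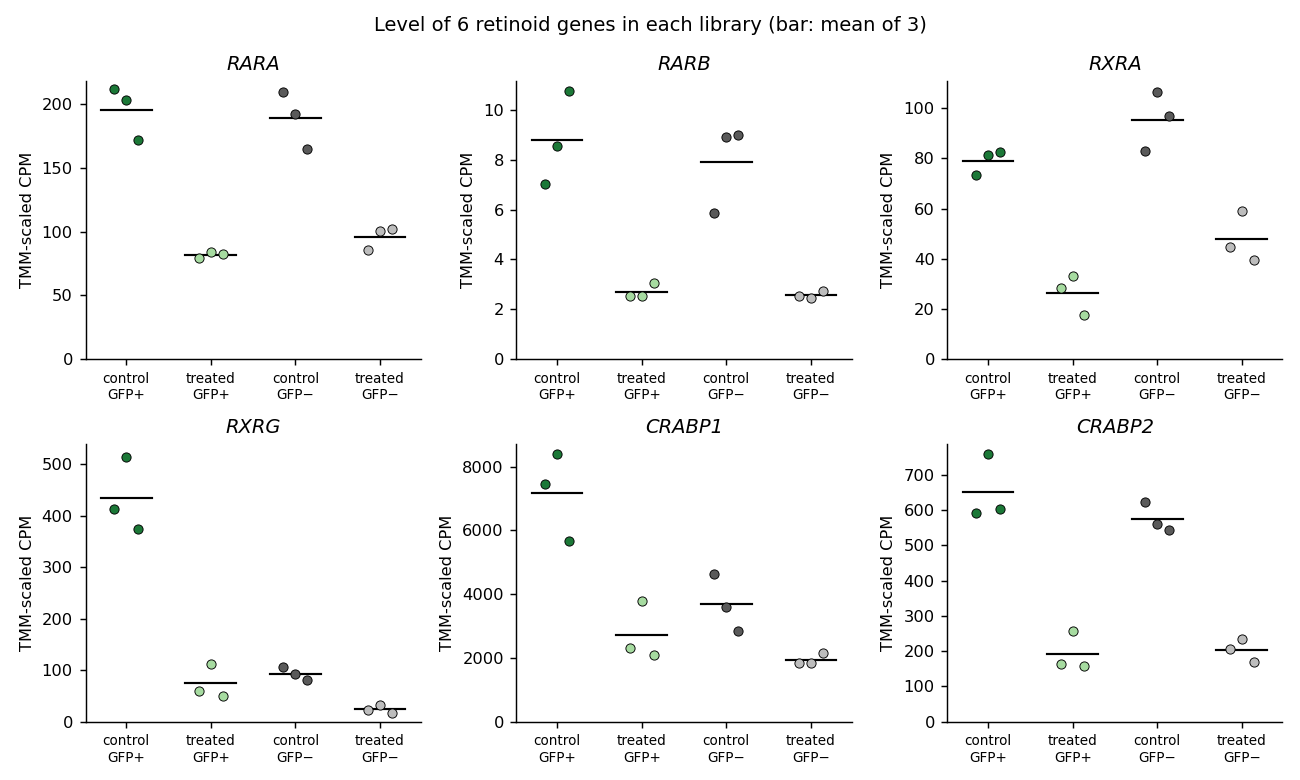
Level of 6 members in each of the 12 libraries, as TMM-scaled CPM on linear axes that start at 0. Points are libraries, and the bar is the mean of the 3. In every panel the 3 treated libraries of a sort fraction lie below its 3 control libraries, and for RXRG the control GFP-positive libraries (373 to 514 CPM) lie apart from the control GFP-negative ones (81.2 to 106 CPM).

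In GFP-positive cells 6 of the 7 members tested fell with cis-chlordane and 0 rose, where 11.2% of all 15333 genes tested were called lower and 12.8% higher. The median log2 fold change of the 7 members was -1.51, beside 0.03 over all genes. RARG, RXRB and CYP26A1 did not pass the filter on low counts. In GFP-negative cells 5 of 9 members tested fell and 0 rose, beside 9.75% of 15513 genes called lower and 8.59% called higher, with a median of -1.17 against -0.01. CYP26A1 and RARG had passed the filter through the control group alone, and of the other 7 members 4 fell. Without control GFP-negative replicate 3, 7 of the 9 were called lower. In bulk RNA, fewer cells of a type and less RNA per cell cannot be told apart. The treated and control comparisons within the 2 sort fractions share no library, but the fractions were taken as sorts of the same cultures. Their results are therefore not independent of each other. Each of these comparisons also shares a group with the comparisons of GFP-positive and GFP-negative cells.

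**Figure D2:**
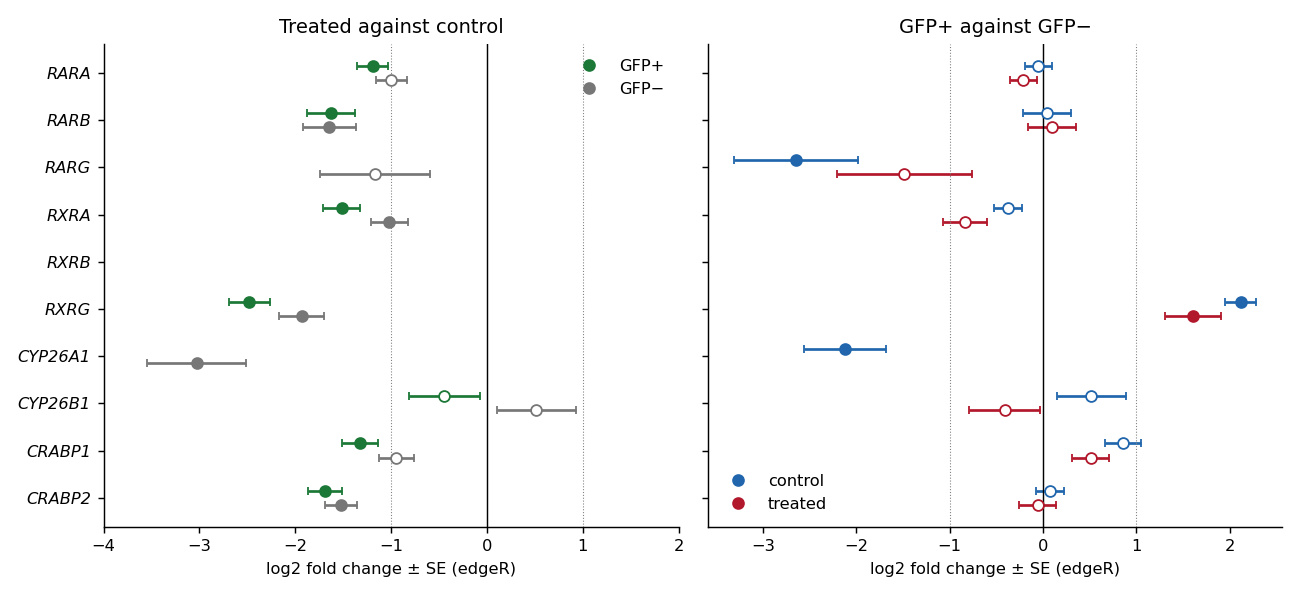
log2 fold change ± SE (edgeR) of each member, treated against control in GFP-positive and GFP-negative cells (left) and GFP-positive against GFP-negative cells in control and treated cultures (right). Filled points were called, open points were tested and not called, and members without a point were not tested. Dotted lines mark a 2-fold difference. On the left only CYP26B1 in GFP-negative cells (0.52) lies above 0, and on the right RXRG (2.12 and 1.60) is called higher in GFP-positive cells in both.

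RARA (chr17:40309180-40357643, + strand, hg38) encodes retinoic acid receptor alpha, the most widely expressed of the RARs. In GFP-positive cells it measured 211, 203 and 172 CPM in the 3 control libraries and 79, 83.9 and 82.2 CPM in the 3 treated ones. The groups did not overlap, and RARA fell 2.28-fold (log2 fold change -1.19 ± 0.16 SE, edgeR adjusted p = 1.2e-07). With the trend of counts on GC content removed the change was -0.83 (edgeR adjusted p = 3.09e-05), under the 2-fold limit. In GFP-negative cells the control libraries were at 209, 192 and 165 CPM and the treated ones at 85.5, 100.1 and 102 CPM. These groups did not overlap either, and the 1.99-fold difference (-0.996 ± 0.16, edgeR adjusted p = 0.0014) fell just short of the 2-fold limit. Without control GFP-negative replicate 3 it was -1.09 (edgeR adjusted p = 0.000627) and was called, as it was without treated replicate 2 (-1.02) or treated replicate 3 (-1.05).

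RARB (chr3:24687887-25597932, + strand) encodes retinoic acid receptor beta, itself induced by retinoic acid through the element shown above. Control GFP-positive libraries had 7.01, 8.58 and 10.8 CPM, and treated ones 2.52, 2.55 and 3.05 CPM. RARB fell 3.09-fold there, without overlap (-1.63 ± 0.25, edgeR adjusted p = 1.4e-06). In GFP-negative cells it measured 5.88, 8.90 and 8.99 CPM in controls and 2.55, 2.44 and 2.73 CPM after treatment. The fall was 3.12-fold (-1.64 ± 0.28, edgeR adjusted p = 0.0019), and the 6 treated libraries of both fractions lay within 2.44 to 3.05 CPM. Without control GFP-negative replicate 3 the change was -1.55 (edgeR adjusted p = 0.00177). RARB stood between 59 and 115 counts in the treated libraries, so its level rests on far fewer reads than that of RARA (1980 to 3103 counts).

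Of the other genes with a DR5 match in a promoter window, 1 was called in each sort fraction with treatment. Of the 29 genes with such a window, 9 besides the members were tested in GFP-positive cells, and 0 were called higher and 1 lower, BATF2 (-2.55 ± 0.38, edgeR adjusted p = 7.2e-07), beside 12.8% and 11.2% of all genes. In GFP-negative cells 10 were tested, and 1 was called higher (CYB5R2, 1.00 ± 0.16, edgeR adjusted p = 0.0016) and 0 lower, beside 8.59% and 9.75%. CYB5R2 was under the 2-fold limit without control replicate 3 (0.95) or treated replicate 2 (0.98). Their median log2 fold changes were -0.14 and 0.09. BATF2 and CYB5R2 were chosen after their values were seen.

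RARG (chr12:53210567-53232980, - strand) encodes the gamma receptor and was close to the detection floor. Control GFP-positive libraries had 3, 5 and 10 counts and treated ones 6, 0 and 13, too few to be tested. Control GFP-negative libraries had 19, 23 and 54 counts and treated ones 7, 17 and 17. The highest of these was the library that also held the haemoglobin reads. RARG was not called in GFP-negative cells (-1.17 ± 0.58, edgeR adjusted p = 0.15), and without that library the change was -0.36 (edgeR adjusted p = 0.62).

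RXRG (chr1:165400922-165445355, - strand) encodes retinoid X receptor gamma, an obligate partner of RARs and other nuclear receptors with a restricted pattern in the nervous system, and it changed most among the members tested in GFP-positive cells. Control GFP-positive libraries measured 412, 514 and 373 CPM and treated ones 60.5, 113 and 49.7 CPM. All treated libraries lay below all controls, and RXRG fell 5.57-fold (-2.48 ± 0.21, edgeR adjusted p = 6e-12). In GFP-negative cells it went from 106, 91.9 and 81.2 CPM to 23.3, 33.0 and 17.8 CPM. The groups again did not overlap and the fall was 3.82-fold (-1.93 ± 0.24, edgeR adjusted p = 0.00039), or -2.02 without control GFP-negative replicate 3 (edgeR adjusted p = 0.000142).

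RXRA (chr9:134317098-134440585, + strand) encodes the broadly expressed alpha partner. In GFP-positive cells it measured 73.4, 81.2 and 82.4 CPM in controls and 28.5, 33.3 and 17.5 CPM after treatment. It fell 2.85-fold without overlap (-1.51 ± 0.19, edgeR adjusted p = 4.6e-08). In GFP-negative cells it went from 82.8, 106 and 97.0 CPM to 44.8, 59.1 and 39.4 CPM. The groups did not overlap, and the 2.02-fold fall (-1.02 ± 0.19, edgeR adjusted p = 0.0036) stood at the limit of a call. It dropped to -0.80 (edgeR adjusted p = 0.0145) with the GC trend removed, and was -0.93 when control replicate 2 was left out, and -0.99 and -0.90 for treated replicates 1 and 3. Leaving out control GFP-negative replicate 3 gave -1.01 (edgeR adjusted p = 0.00406), which kept the call.

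RXRB (chr6:33193588-33200665, - strand), the beta partner that most tissues express, was listed at 0 to 10 counts in 11 libraries and at 101 counts in treated GFP-positive replicate 2. It was not tested in any comparison. All 9 of its exons of at least 100 bases have an exact copy on other sequences of the hg38 file (5 sequences, outside the main chromosome), which none of the other members has. Within 150 kb of it, 12 of 16 protein-coding genes averaged under 1 CPM, against 33% of the protein-coding genes matched. Reads that map equally well to several places are often left uncounted, and the counting settings are not given in the sources used here. The level of RXRB can therefore not be read as low, and the part of the copies in it was not tested.

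**Figure D3:**
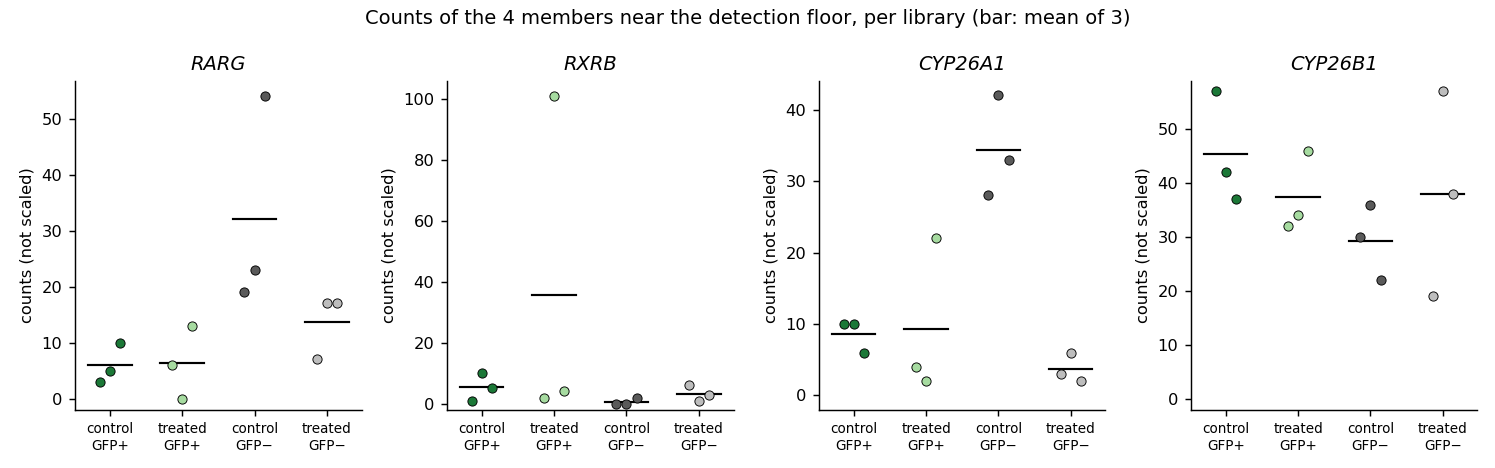
Counts, not scaled for depth, of the 4 members with the fewest reads in each of the 12 libraries, on linear axes. Points are libraries, and the bar is the mean of the 3. CYP26A1 is highest in the 3 control GFP-negative libraries (28 to 42 counts), and 1 treated GFP-positive library sets the mean of RXRB (101 counts against 2 and 4).

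CYP26A1 (chr10:93073475-93077885, + strand), the main retinoic acid hydroxylase of the embryo and the most sensitive retinoic acid target among the members, was detected best in control GFP-negative cells, at 28, 42 and 33 counts. Treated GFP-negative libraries had 3, 6 and 2 counts. It fell 8.17-fold without overlap (-3.03 ± 0.52, edgeR adjusted p = 0.0021), and the change was -2.93 without control GFP-negative replicate 3 (edgeR adjusted p = 0.0029). It passed the filter only through the control group, so the test was open to a fall alone. In GFP-positive cells the controls had 10, 10 and 6 counts and the treated libraries 4, 2 and 22, which overlapped and were not tested.

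CYP26B1 (chr2:72129238-72147862, - strand), the second hydroxylase, had 19 to 57 counts in the 12 libraries and was the member for which no comparison was called. In GFP-positive cells it went from 57, 42 and 37 to 32, 34 and 46 counts (-0.44 ± 0.37, edgeR adjusted p = 0.33). In GFP-negative cells it went from 30, 36 and 22 to 19, 57 and 38 counts (0.52 ± 0.41, edgeR adjusted p = 0.37). The groups overlapped in both fractions, and the latter value was 0.45 without control GFP-negative replicate 3 (edgeR adjusted p = 0.475).

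CRABP1 (chr15:78340353-78348225, + strand) encodes a carrier that binds retinoic acid in the cytoplasm and is a known mark of early hindbrain and spinal neurons. In GFP-positive cells it measured 7468, 8394 and 5663 CPM in controls and 2309, 3773 and 2100 CPM after treatment. The groups did not overlap, and CRABP1 fell 2.51-fold (-1.33 ± 0.19, edgeR adjusted p = 3.4e-07). In GFP-negative cells it went from 4632, 3605 and 2842 CPM to 1854, 1829 and 2164 CPM. The groups did not overlap, but the 1.92-fold difference (-0.94 ± 0.18, edgeR adjusted p = 0.0037) was under the limit for a call. Without control GFP-negative replicate 3, the lowest control, it was -1.10 (edgeR adjusted p = 0.00086) and called, as it was without treated GFP-negative replicate 3 (-1.03).

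CRABP2 (chr1:156699606-156705816, - strand) encodes the carrier that delivers retinoic acid to RARs in the nucleus. Control GFP-positive libraries had 591, 758 and 602 CPM and treated ones 163, 256 and 157 CPM. It fell 3.23-fold without overlap (-1.69 ± 0.18, edgeR adjusted p = 9.2e-10). In GFP-negative cells it went from 621, 561 and 543 CPM to 207, 233 and 169 CPM. It fell 2.87-fold without overlap (-1.52 ± 0.17, edgeR adjusted p = 0.00022), and by -1.56 without control GFP-negative replicate 3 (edgeR adjusted p = 0.000117).

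In the comparison of sort fractions, RXRG was the member called higher in GFP-positive cells. In control cultures 1 of 9 members tested was called higher in GFP-positive cells and 2 lower, where 7.47% of 15404 genes were called higher and 15.3% lower. Among cell type markers there, 9 of 12 for motor neurons were called higher in GFP-positive cells and 1 lower. Of those tested, 9 of 11 neural progenitor, 8 of 8 dividing cell and 10 of 11 interneuron markers were lower, and 0 were higher. The part of these marker differences in the values of the members was not tested. RXRG was 4.33-fold higher, from the libraries given above (2.12 ± 0.17, edgeR adjusted p = 8.6e-06), and 2.05 on the log2 scale without control GFP-negative replicate 3 (edgeR adjusted p = 5.16e-08). CYP26A1 was 4.35-fold lower in GFP-positive cells (-2.12 ± 0.44, edgeR adjusted p = 0.0035) and RARG 6.27-fold lower (-2.65 ± 0.66, edgeR adjusted p = 0.0098). Both passed the filter through the GFP-negative group alone. Without control GFP-negative replicate 3 they were at -2.0 (edgeR adjusted p = 0.00412) and -1.81 (edgeR adjusted p = 0.0213), and RARG lost its call without control GFP-positive replicate 2 (edgeR adjusted p = 0.059). CRABP1 was 1.81-fold higher in GFP-positive cells (0.86 ± 0.20, edgeR adjusted p = 0.0063), and all 3 libraries lay above those of GFP-negative cells. CRABP1 was at 0.72 without control GFP-negative replicate 3 (edgeR adjusted p = 0.0119) and was not called. It passed the 2-fold limit without control GFP-negative replicate 1 (1.04) or control GFP-positive replicate 3 (1.01), and with the GC trend removed (1.14).

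After treatment RXRG was still 3.04-fold higher in GFP-positive cells (1.60 ± 0.30, edgeR adjusted p = 0.00078) and was the 1 member of 8 called higher, with 0 called lower, beside 10.0% of 15416 genes called higher and 13.7% lower. RXRA was 1.79-fold lower in GFP-positive cells without overlap (-0.84 ± 0.24, edgeR adjusted p = 0.011) and was called without treated GFP-positive replicate 2 (-1.06). RARG differed by -1.49 ± 0.72 (edgeR adjusted p = 0.10), and by -1.59 with the sorted fractions of a culture paired by replicate number (edgeR adjusted p = 0.0397), where it was called, as it was without treated GFP-positive replicate 3 (-2.48, edgeR adjusted p = 0.0364). RARA, RARB, CRABP2 and CYP26B1 were not called between fractions in control or treated cultures.

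In the test of an interaction between treatment and sort fraction, 0 of the 9 members tested passed, beside 0.968% of 16226 genes with a more positive response in GFP-positive cells and 1.22% with a more negative one. The value for RXRG was -0.63 ± 0.38 (edgeR adjusted p = 0.44). With the 2 fractions of each culture paired it was -0.67 (edgeR adjusted p = 0.0456) and passed the threshold, and the genes called rose from 157 to 519 in the more positive and from 198 to 745 in the more negative direction. CYP26A1 had the largest value (2.88 ± 0.99, edgeR adjusted p = 0.15) and rests on the libraries with 2 to 42 counts. Its highest counts were the 28, 42 and 33 of control GFP-negative cells, the group that carried it past the filter. A positive value was thereby favoured in advance, so it gives no separate support for a response that differs. At an unadjusted p under 0.05, CYP26A1 was the only member of the 9 in the unpaired fit, and DESeq2 called 0 members.

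The balance between related members was compared within libraries, which does not depend on the scaling between them. RXRG exceeded RXRA per kilobase by 15.8, 17.9 and 12.8 times in the control GFP-positive libraries and by 5.98, 9.53 and 7.98 times in the treated ones. In GFP-negative cells the ratio was 3.61, 2.43 and 2.36 in controls and 1.46, 1.57 and 1.27 after treatment. The 4 groups did not overlap. The mean log2 ratio was lower by -0.995 and -0.942 with treatment in the 2 fractions. CRABP1 exceeded CRABP2 per kilobase by 16.7, 14.6 and 12.4 times in control and 18.7, 19.5 and 17.6 times in treated GFP-positive libraries, and by 9.84, 8.49 and 6.91 times in control and 11.9, 10.4 and 16.9 times in treated GFP-negative libraries. This ratio was thus higher after treatment in both fractions, by 0.36 and 0.62 on the log2 scale. RARA exceeded RARB per kilobase by 15.3 to 28.8 times in control and 25.8 to 31.5 times in treated GFP-positive libraries, which overlapped, and by 17.5 to 34.0 and 32.1 to 39.3 times in GFP-negative ones, which also overlapped (exact permutation p = 0.2 in both fractions, 0.218 adjusted). Each of the 4 treatment differences in the RXRG to RXRA and CRABP1 to CRABP2 ratios had a two-sided exact permutation p = 0.1, the smallest that 3 against 3 libraries allow, and 0.133 after adjustment over the 12 ratio comparisons made.

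**Figure D4:**
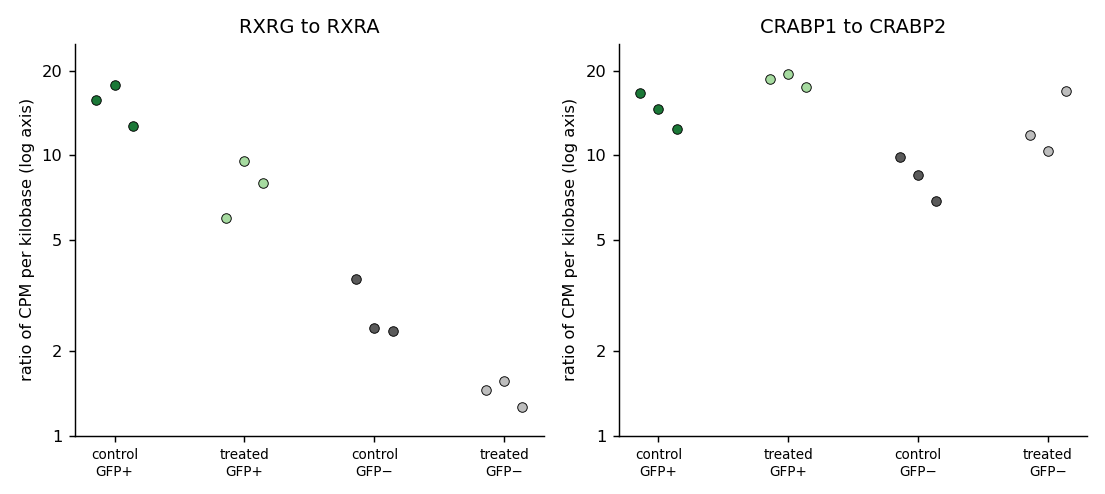
Ratio of RXRG to RXRA (left) and of CRABP1 to CRABP2 (right) in each library, from CPM per kilobase of canonical transcript, on log axes from 1 to 25. Points are libraries. The RXRG to RXRA ratio steps down from control GFP-positive (12.8 to 17.9) to treated GFP-negative libraries (1.27 to 1.57), while the treated libraries of each fraction lie above its controls for CRABP1 to CRABP2.

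Some genes that take up, store and carry retinol fell with treatment. Of 14 on the list, 0 rose and 3 of 7 tested fell in GFP-positive cells (median -0.85), and 0 rose and 2 of 9 fell in GFP-negative cells (median -1.07), where 4 fell without control GFP-negative replicate 3. Over all genes 11.2% were called lower in GFP-positive and 9.75% in GFP-negative cells. STRA6, the membrane receptor that takes up retinol, fell in GFP-positive cells from 172 ± 13.6 to 71.1 ± 30.5 CPM (SD, n = 3; -1.21 ± 0.20, edgeR adjusted p = 5.5e-06). LRAT, which esterifies retinol for storage, fell in GFP-negative cells from 3.74 ± 0.51 to 0.459 ± 0.41 CPM (-3.01 ± 0.56, edgeR adjusted p = 0.003). LRAT had 3 to 26 counts in the treated libraries and passed the filter through the control group, so the test was open to a fall alone. LRP2, an endocytic receptor, fell in GFP-positive cells (-1.06 ± 0.27, edgeR adjusted p = 0.0015). The changes of STRA6 and LRP2 were near the 2-fold limit and under it without treated GFP-positive replicate 3 for STRA6 (-0.94), and without control GFP-positive replicate 3 (-0.95) or treated GFP-positive replicate 1 (-0.89) for LRP2. In control cultures LRP2, LRAT and LPL, a lipase, were lower in GFP-positive cells (-3.42, -3.30 and -3.09), and STRA6 was higher (1.41 ± 0.14, edgeR adjusted p = 3.9e-05). LRAT had 9 to 17 counts in the control GFP-positive libraries, and LPL 10 to 26. LRAT passed the filter through the GFP-negative group, so this test was open to a lower level alone.

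Among the enzymes of retinoic acid synthesis and its reversal, DHRS3 moved against the members. Of 18 on the list, 1 rose and 1 fell of 9 tested in GFP-positive cells (median 0.16), and 1 rose and 0 fell of 9 in GFP-negative cells (median 0.33). These counts stand beside 12.8% of all genes called higher and 11.2% lower in GFP-positive cells, and 8.59% and 9.75% in GFP-negative cells. DHRS3, which turns retinaldehyde back to retinol, rose from 0.608, 0.746 and 1.48 to 9.10, 9.17 and 10.5 CPM in GFP-positive cells, ordered by level. It rose 3.39 ± 0.30 on the log2 scale (edgeR adjusted p = 1.2e-11), and 1.61 ± 0.26 in GFP-negative cells (edgeR adjusted p = 0.0016). The difference between these responses passed the interaction test (1.69 ± 0.41, edgeR adjusted p = 0.041). It passed without control GFP-negative replicate 3 or control GFP-positive replicate 2, and missed without any 1 of the other 10 libraries (1.45 to 1.89, edgeR adjusted p from 0.0501 to 0.114). The retinaldehyde dehydrogenase ALDH1A2 averaged 0.42 to 1.91 CPM over the 4 groups and was called only between treated fractions (1.03 ± 0.32, edgeR adjusted p = 0.018), a call lost without treated GFP-negative replicate 2 (0.96), treated GFP-negative replicate 3 (0.92) or treated GFP-positive replicate 3 (0.95). ALDH8A1 was higher (1.48) and the short-chain reductase DHRS4 lower (-1.22) in treated GFP-positive than treated GFP-negative cells. DHRS4 was under the 2-fold limit with GC trends removed (-0.92). The other clearance enzymes and carriers (5 genes, 3 tested) had 1 gene called higher and 0 lower in each fraction with treatment, CYP2S1 (1.14 ± 0.40, edgeR adjusted p = 0.016, with overlap, and 1.15 ± 0.34, edgeR adjusted p = 0.029). The call was lost in GFP-positive cells on leaving out treated replicate 1 (1.03), treated replicate 2 (0.86) or control replicate 3 (0.96), and in GFP-negative cells on leaving out treated replicate 1 (1.08), treated replicate 2 (1.03) or control replicate 1 (0.93).

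Most of the tested genes known to respond to retinoic acid fell with treatment, 14 of 26 in GFP-negative cells without control GFP-negative replicate 3. Of 30 on the list, which shares 3 genes with the lists above, DHRS3 and STRA6 among them, 18 of 24 tested fell and 1 rose in GFP-positive cells (median -1.39), and 16 of 26 fell and 1 rose in GFP-negative cells (median -1.11). Over all genes 11.2% were called lower and 12.8% higher in GFP-positive cells, and 9.75% and 8.59% in GFP-negative cells. DHRS3 was the gene on the list that rose. HOXB4, a hindbrain and spinal identity gene, went from 283 ± 31.7 to 52.2 ± 9.07 CPM in GFP-positive cells (-2.37 ± 0.17, edgeR adjusted p = 9.6e-14) and from 220 ± 8.04 to 58.8 ± 5.30 CPM in GFP-negative cells (-1.93 ± 0.15, edgeR adjusted p = 3.4e-05). HOXA5 fell by 2.31 and 2.17 on the log2 scale, and SKIDA1 by 2.22 and 2.10. In control cultures 5 of 25 were lower and 1 higher in GFP-positive cells, beside 15.3% and 7.47% of all genes. Among the 5 were RARRES2 (-2.43) and DHRS3 (-2.39). These lists were compiled with earlier results of these data known, so the counts describe the lists and add no independent evidence.

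**Figure D5:**
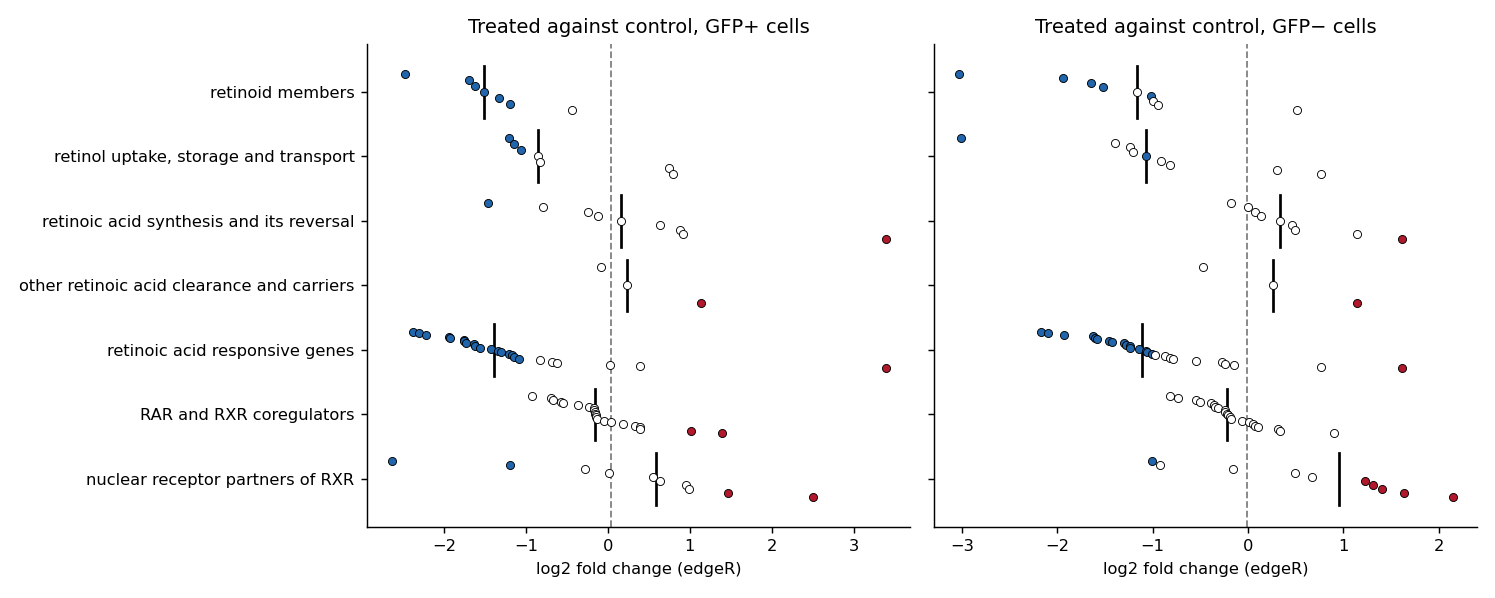
log2 fold change (edgeR) of the tested genes of 7 lists, treated against control, in GFP-positive (left) and GFP-negative cells (right). Each point is a gene, blue when called lower, red when called higher and open when not called. The black bar is the median of the list and the dashed line that of all genes tested (0.03 and -0.01). The members (-1.51 and -1.17) and the responsive genes (-1.39 and -1.11) lie left of the dashed line in both panels, with DHRS3 (3.39 and 1.61) as the red point of the latter.

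Few coregulators that the receptors recruit were called. All 22 were tested: 2 rose and 0 fell in GFP-positive cells (median -0.15), beside 12.8% and 11.2% of all genes, and 0 rose and 0 fell in GFP-negative cells (median -0.22), beside 8.59% and 9.75%. Without control GFP-negative replicate 3, 1 rose there. The 2 were TACC1 (1.40 ± 0.18, edgeR adjusted p = 8.1e-08) and TBL1X, a subunit of the NCoR corepressor complex (1.02 ± 0.18, edgeR adjusted p = 1.4e-05). TBL1X was under the 2-fold limit once treated replicate 1 (0.95), treated replicate 2 (0.98) or control replicate 1 (0.92) was left out. HDAC3, the deacetylase of that complex, was lower in GFP-positive than GFP-negative cells in control (-1.23) and treated cultures (-1.04), the latter under the 2-fold limit without treated GFP-negative replicate 3 (-0.98) or treated GFP-positive replicate 3 (-0.97).

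The other nuclear receptors that pair with RXR moved in both directions. Of 13 on the list, 2 rose and 2 fell of 10 tested in GFP-positive cells (median 0.59), and 5 rose and 1 fell of 10 in GFP-negative cells (median 0.95). Over all genes 12.8% rose and 11.2% fell in GFP-positive cells, and 8.59% rose and 9.75% fell in GFP-negative cells. The 2 and 2 of 10 in GFP-positive cells are near these shares. NR4A2, an orphan receptor that binds RXR, fell from 16.5 ± 3.46 to 2.53 ± 0.32 CPM in GFP-positive cells (-2.64 ± 0.23, edgeR adjusted p = 1.4e-11). It was at 5.11 ± 2.04 and 2.73 ± 0.70 CPM in control and treated GFP-negative cells (-0.92 ± 0.38, edgeR adjusted p = 0.089), and the difference between the responses passed the interaction test (-1.80 ± 0.43, edgeR adjusted p = 0.04). It passed without control GFP-negative replicates 1 or 3 or treated GFP-negative replicate 3, and missed without any 1 of the other 9 libraries (-1.92 to -1.61, edgeR adjusted p from 0.0653 to 0.14). Its relative NR4A1 rose in both (1.47 ± 0.18, edgeR adjusted p = 1.3e-08, and 1.64 ± 0.18, edgeR adjusted p = 0.00019). The thyroid hormone receptor THRA fell in both (-1.19 ± 0.17, edgeR adjusted p = 2.4e-07, and -1.01 ± 0.16, edgeR adjusted p = 0.0015), VDR rose in both (2.50 and 2.15), and by 3.04 in GFP-negative cells without control GFP-negative replicate 3, and THRB rose in GFP-negative cells (1.41). In GFP-negative cells THRA was at -0.96 to -0.99 and under the 2-fold limit when control replicate 1 or 2, or treated replicate 1 or 3, was left out. In GFP-positive cells VDR had 3 to 5 counts in the control and 16 to 30 in the treated libraries. It passed the filter there through the treated group, so that test was open to a rise alone. VDR lost its call in GFP-negative cells without treated replicate 3 (2.05), and THRB without treated replicate 1 (1.34), treated replicate 2 (1.32) or control replicate 2 (1.30).

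Several lists of cell type markers also changed with treatment. Their counts stand beside 11.2% of all genes called lower and 12.8% higher in GFP-positive cells, and 9.75% and 8.59% in GFP-negative cells. The summed level of 12 motor neuron markers was 2799 to 3582 CPM in control and 877 to 1254 CPM in treated GFP-positive libraries, and 598 to 674 and 198 to 245 CPM in GFP-negative ones. In GFP-positive cells 9 of the 12 fell and 0 rose, and in GFP-negative cells 7 fell and 0 rose, with ISL1 at -2.39 and -2.23. The 9 general neuron markers summed to 14743 to 17840 CPM in control and 7574 to 9325 CPM in treated GFP-positive libraries, of which TUBB3 made up 9510 and 3704 CPM on average. Of the 9, 3 fell in GFP-positive and 1 in GFP-negative cells and 0 rose, and SNAP25 was not called (0.99 and 0.64). The 12 neural progenitor markers summed to 6472 to 8569 CPM in control and 7416 to 8459 CPM in treated GFP-negative libraries, of which VIM made up 3863 and 6426 CPM on average. Of the 11 tested, 7 fell and 0 rose in GFP-negative cells (median -1.26), and 3 fell and 1 rose in GFP-positive cells, while HES5 had at most 3 counts in each library.

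All 8 markers of dividing cells fell in GFP-negative cells, where they summed to 931 to 1060 CPM in control and 297 to 370 CPM in treated libraries. Without control GFP-negative replicate 3, 7 of them fell. In GFP-positive cells 3 of the 8 fell and 0 rose (136 to 181.5 CPM in sum in controls, 77.9 to 105 CPM after treatment). Of the interneuron markers, 9 of 11 tested fell in GFP-negative cells (117 to 133 CPM in sum in controls, 34.0 to 39.2 CPM after treatment) and 2 of 6 fell and 1 rose in GFP-positive cells. Of the mesenchymal markers, 3 of 3 tested fell in GFP-positive cells (261 to 327 and 50.6 to 82.2 CPM in sum) and 3 of 7 in GFP-negative cells. Of the glial markers, 1 rose and 2 fell of 4 tested in GFP-positive cells, and 2 rose and 2 fell of 6 in GFP-negative cells. Of the endothelial and blood markers, 1 rose and 1 fell of 4 tested in GFP-positive cells and of 8 in GFP-negative cells, where 4 rose and 1 fell without control GFP-negative replicate 3. The pluripotency genes POU5F1, NANOG and TDGF1 had at most 3 counts in each library. LIN28A, which neural progenitors also express, fell from 155 to 48.3 CPM in GFP-positive and from 184 to 83.3 CPM in GFP-negative cells (-1.62 and -1.16), and DPPA4 was not called (-0.13 and -0.17). Among all genes, 11.2% were called lower and 12.8% higher with treatment in GFP-positive cells, and 9.75% and 8.59% in GFP-negative cells. The part of these marker shifts in the values of the members was not tested.

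Across the 12 libraries, the genes whose log2 CPM was most like that of a member were described by Pearson's r among 16226 genes. The 12 libraries are 4 groups of 3, so r mostly follows the group differences, and no p is given. The closest were TOMM40L and SAMD11 to RXRG (r = 0.994 and 0.992), PHETA1 and BTBD17 to RARA (0.992 and 0.990), ZNF362 and ASIC4 to CRABP2 (0.989 and 0.988), and SNCG and RAMP1 to CRABP1 (0.986 and 0.986). For RXRA they were NXN and TSPAN14 (0.985 and 0.982), and for RARB IPO5P1 and KCNK2 (0.983 and 0.981). The members with few counts had lower values, with BAZ1A and HOXD-AS2 for RARG (0.934 and 0.929), SERTM1 and ZNF519 for CYP26A1 (0.911 and 0.907), and CXCL12 and CDC42EP3 for CYP26B1 (0.766 and 0.702).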

How the data were processed

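Single-end, reverse-strand reads of 12 libraries were mapped by the authors to hg38 with HISAT2 and an Ensembl 103 annotation, raw counts per gene were deposited, and featureCounts is named in the submitters' processing notes without settings. Counts were used as deposited, and 0 per-sample columns were left out. Groups and replicate numbers came from the sample labels, where titles of treated libraries also begin with "untreated" and the treatment entry was used. The members and lists were chosen with earlier results of these data known.

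Genes were tested with edgeR 4.0.16 in R 4.3.3 (TMM scaling, filterByExpr with a minimum count of 10 and minimum total of 15, quasi-likelihood F-test, Benjamini-Hochberg adjustment over all genes tested). Each comparison used the 6 libraries of its groups, and the interaction all 12. Calls needed an adjusted p under 0.05 and, except for the interaction, a 2-fold difference. Alternatives were DESeq2 1.42.0, scaling by RLE or by library size alone, omission of the filter, a minimum of 10 counts throughout, a replicate or culture block, a fit to all 12 libraries, removal of GC trends (loess span 0.5) and each library left out.

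Named were all members, up to 3 genes per pathway list and comparison (called, no overlap, mean of at least 1 CPM, largest change), the 2 genes most like each member, ISL1, HSPA5 and DDIT3. Some genes that this rule names are not reported here. The marker genes given with values were named after they were seen. Others are marked, among them HBB and PTPRC, which were chosen after their values were seen, as were ISL1 in the treatment comparisons and the further list genes named for contrast. Positions, lengths and GC came from GENCODE 44, which matched 25763 of 28278 symbols, and promoter windows from RefSeq, all 18 identical in hg38. Log2 CPM for likeness used a prior count of 2.

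Replicate numbers mark biological replicates, so the 2 fractions that share a treatment and a number were taken as sorts of the same culture. Correlations of their deviations, taken from each group mean over 16226 genes, were 0.281, 0.0849 and 0.214 for control and 0.16, 0.204 and 0.356 for treated cultures. Treated and control libraries share only a number. The fits were first tested on simulated data. Plots used matplotlib 3.10.9 and Python 3.11.15.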

Additional observations from a re-analysis of the deposited data

Results flagged for a closer look

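Among the members and the pathway lists, 2 genes had a response to cis-chlordane that differed between the sort fractions by a test of the difference itself, and RXRG did in 1 paired fit. On the cell type marker lists 6 genes did. DHRS3 was 1 of 10 genes tested on the synthesis list and 1 of 26 on the responsive list. NR4A2 was 1 of 10 tested among the RXR partners. The members (9 tested), uptake genes (9), other clearance genes (3) and coregulators (22) had 0 in the unpaired fit. Over all 16226 genes 0.968% passed in the more positive direction and 1.22% in the more negative one. DHRS3, the retinaldehyde reductase, rose more in GFP-positive than in GFP-negative cells, by 1.69 on the log2 scale (edgeR adjusted p = 0.041), and by 1.71 with the fractions of a culture paired. NR4A2 fell more in GFP-positive cells, by -1.80 (edgeR adjusted p = 0.04), and by -1.84 with the pairing. With 1 library left out at a time, DHRS3 missed the threshold in 10 of 12 fits and NR4A2 in 9 of 12, each with the same direction throughout. NR4A2 also missed it with RLE scaling (-1.74, edgeR adjusted p = 0.0514), library size alone (-1.53, edgeR adjusted p = 0.113) and at least 10 counts in every library (-1.64, edgeR adjusted p = 0.053), while DHRS3 passed under each setting run that kept all 12 libraries. RXRG fell more in GFP-positive cells by -0.67 when the fractions of a culture were paired (edgeR adjusted p = 0.0456), and by -0.63 without the pairing (edgeR adjusted p = 0.44). It passed in none of the other 7 settings run with all 12 libraries, among them the paired fit with GC trends removed (-0.59, edgeR adjusted p = 0.0679). Groups of 3 libraries are too small for a test of single outlying samples.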

How the results depend on the processing

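Of 668 values of single members under other settings, 617 kept their direction and side of the threshold, 26 changed sign, 16 gained a call and 9 lost one. The 26 were small and not called. RARA between control fractions was 0.050 with all 12 libraries and 0.23 with GC trends removed, and RARA, RARB and CRABP2 between treated fractions were 0.15, -0.010 and 0.19 with GC trends removed (0.23, 0.15, -0.010 and 0.17 with the replicate block added). CRABP2 between treated fractions was 0.10 with library size alone, and the interaction of RARB 0.20 there and 0.088 with at least 10 counts in every library. With each library left out, RARA, RARB and CRABP2 ran from -0.12 to 0.036, -0.14 to 0.19 and -0.020 to 0.14 between control fractions. Between treated fractions RARB and CRABP2 ran from -0.021 to 0.13 and -0.34 to 0.069, and their interactions from -0.21 to 0.13 and -0.52 to 0.029.

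Members called higher became 1 with treatment in GFP-positive cells and 2 between treated fractions with no filter. The members that entered there had been held back by low counts, among them RXRB, with 101 counts in treated GFP-positive replicate 2. Members called higher became 2 between control fractions with GC trends removed, alone or with the block, where all genes called higher became 1727. Members called lower between control fractions became 0 with at least 10 counts in every library, a filter that RARG and CYP26A1 could not pass. With each library left out, members called between control fractions were 1 to 2 higher and 1 to 2 lower, and between treated fractions 0 to 1 lower. Genes with an interaction, in the more positive and more negative direction, numbered 411 and 378 with DESeq2, 266 and 84 with library size alone, 543 and 594 with GC trends removed and the culture block, and 68 to 212 and 47 to 202 with each library left out, and the latter direction 105 with at least 10 counts in every library. They moved by over 1.5 times in either direction without each library other than control GFP-negative replicates 1 and 3 and treated GFP-positive replicate 2. The cause was not tested.

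Pairing the fractions of a culture in a replicate block left 1 member called lower between treated fractions (RARG, -1.59) and 1 in the interaction (RXRG, -0.67), where 519 and 745 genes were called, and it changed no other member call. Each of these libraries correlated best with its own number. Treated and control libraries share only a number, and their correlations ran from -0.05 to 0.28. A block on it kept 6 members lower in GFP-positive and 5 in GFP-negative cells.

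Library size alone moved the median of all genes from 0.03 to 0.14 with treatment in GFP-positive cells, from 0.05 to 0.22 between treated fractions and from -0.05 to 0.20 in the interaction, and GC removal moved it from -0.015 to 0.14 between control fractions. For the other genes named, the same settings were run after the data were seen on 61 called values, of which 41 kept their call throughout and none changed sign. Near the 2-fold limit, GC removal put the treatment values of STRA6, RARRES2 and THRA in GFP-positive cells at -0.89, -0.94 and -0.91. It put DHRS4 and HDAC3 between treated fractions at -0.92 and -0.85.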
